A study of Mus musculus with 2 samples.

Results

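The GADD45 proteins are small acidic proteins that hold no enzyme activity of their own and act by binding partners. They activate the stress kinase MAP3K4 and through it p38 and JNK, bind PCNA, p21 and the CDK1-cyclin B complex, and take part in active DNA demethylation. In liver the 3 genes answer to different signals: Gadd45a is a p53 and stress gene, Gadd45b is known for NF-κB, TGF-β and the regenerating liver, and Gadd45g for cytokines and growth arrest. The 3 members, Gadd45a, Gadd45b and Gadd45g, were found by symbol among the 19465 genes listed, and the family was chosen by measured values, because Gadd45g had the largest positive ratio between the libraries among well measured genes. That ratio is therefore given as a description only.

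Spatial transcriptomics (ST) was done on 1 liver section of a mouse without AEG-1 in myeloid cells (AEG-1ΔMAC) and 1 of a floxed control (AEG-1fl/fl). Whether both sections lay on the same slide was not established here. AEG-1 is encoded by Mtdh, and in AEG-1ΔMAC the floxed gene is removed by Cre expressed from the Lyz2 locus, which is active in macrophages, monocytes and neutrophils and not in hepatocytes. Both mice carried floxed Mtdh and were 27 weeks old. By their labels both ate a high fat/high sugar diet from week 7 on, but in the study's methods the mice of this assay were littermates on control diet, so the diet is uncertain and the label is the same for both. There was 1 library per genotype, so no test between genotypes was possible. Genotype cannot be told apart from mouse, section, capture area or, if they differed, slide. All intervals are 95% and cover counting error only.

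After spot filtering there were 2140 AEG-1ΔMAC and 2540 AEG-1fl/fl spots, with 45453286 and 50322850 unique molecular identifiers (UMIs) and a median of 20929.5 and 18285 UMIs per spot. A spot can hold several cells of different types, so fewer cells of a type and less RNA per cell cannot be told apart. Levels are UMIs summed over the spots of a library, per 1000000 UMIs of that library (CPM). Ratios are AEG-1ΔMAC over AEG-1fl/fl on the log2 scale, and the median of all genes was 0.15, which dropped to 0.02 when the libraries were scaled by TMM factors. Hepatocyte markers (Alb, Apoa1, Ttr and Serpina1c) summed to 141703 and 204544 CPM, and Alb alone held 8.80% and 14.2% of UMIs. Kupffer cell markers summed to 588 and 551 CPM with none of the 6 at 0. Of these, 4 were higher in AEG-1ΔMAC, while Marco was lower, at 13.9 and 36.1 CPM (log2 ratio -1.38), so the sum does not hold for each marker. Mtdh itself was at 66.3 and 60.2 CPM, which checks little in whole liver, since hepatocytes, where Cre is not active, express it too.

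The members lie on separate chromosomes in GRCm38, the mm10 assembly. Gadd45a is on chromosome 6 at 67035096 to 67037457 on the minus strand, where the non-coding gene E230016M11Rik overlaps its start on the other strand. Gadd45b is on chromosome 10 at 80930073 to 80932204 and Gadd45g on chromosome 13 at 51846678 to 51848468, both on the plus strand. Each has up to 4 exons. The 250 bases before each RefSeq gene start (GRCm38.p6, all 3 matched by symbol) are shown because the members differed in ratio and place, and lie at chr6:67037408-67037657 (minus strand), chr10:80929841-80930090 and chr13:51846425-51846674 (plus strand). Capitals mark the TATA box (TATAAA), the CCAAT box (CCAAT), the E-box (CACGTG) and the octamer (ATTTGCAT), each searched on both strands.
Gadd45a: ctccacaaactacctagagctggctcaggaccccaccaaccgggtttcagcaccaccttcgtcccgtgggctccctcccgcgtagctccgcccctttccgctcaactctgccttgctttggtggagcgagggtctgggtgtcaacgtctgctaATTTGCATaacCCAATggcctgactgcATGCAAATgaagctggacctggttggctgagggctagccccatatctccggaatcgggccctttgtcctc
Gadd45b: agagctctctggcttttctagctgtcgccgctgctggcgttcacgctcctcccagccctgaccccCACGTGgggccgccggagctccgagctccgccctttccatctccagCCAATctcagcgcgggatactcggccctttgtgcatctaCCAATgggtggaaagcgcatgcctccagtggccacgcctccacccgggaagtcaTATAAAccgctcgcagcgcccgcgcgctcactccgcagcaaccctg
Gadd45g: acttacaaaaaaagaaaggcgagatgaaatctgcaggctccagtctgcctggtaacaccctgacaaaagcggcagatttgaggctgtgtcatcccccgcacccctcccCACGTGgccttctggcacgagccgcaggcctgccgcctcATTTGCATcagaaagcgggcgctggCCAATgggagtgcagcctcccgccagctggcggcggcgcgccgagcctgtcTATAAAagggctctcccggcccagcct
In Gadd45g the window held a TATA box whose first base is at -27 from the gene start, a CCAAT box at -78, an octamer at -103 and an E-box at -142. Gadd45b held a TATA box at -46, CCAAT boxes at -100 and -139 and an E-box at -185, with no octamer. Gadd45a held neither TATA box nor E-box in these letters, and had a CCAAT box at -86 between octamers at -97 and -70. Of 32851 mouse promoter windows of this length, 12.4% held the TATA box, 33.8% the CCAAT box, 6.02% the E-box and 1.60% the octamer. The letters searched for a CRE (TGACGTCA), AP-1 (TGANTCA) and the NF-kB motif were in none of the 3 windows and in 1.55%, 6.75% and 1.41% of all. The windows were rich in G and C, at 59.2% in Gadd45a, 65.2% in Gadd45b and 62.0% in Gadd45g, against a median of 52.4%.

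Gadd45g stood far apart between the libraries, while its paralogs did not. With 9524 UMIs in AEG-1ΔMAC against 482 in AEG-1fl/fl, Gadd45g was at 209.5 CPM (205.3 to 213.8) and 9.58 CPM (8.74 to 10.5). The log2 ratio was 4.45 (4.32 to 4.59), a 21.9-fold higher level in AEG-1ΔMAC. Gadd45a had 546 and 585 UMIs, or 12.01 CPM (11.03 to 13.1) and 11.6 CPM (10.7 to 12.6), a log2 ratio of 0.05 (-0.12 to 0.22). Its sign was negative under TMM factors, at -0.08, so no direction can be given. Gadd45b had 105 and 148 UMIs, or 2.31 CPM (1.89 to 2.80) and 2.94 CPM (2.49 to 3.45), a log2 ratio of -0.35 (-0.72 to 0.02). It was the least counted member, and its interval reached just past 0. The plot of member levels shows the split in 1 gene only.

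**Figure D1:**
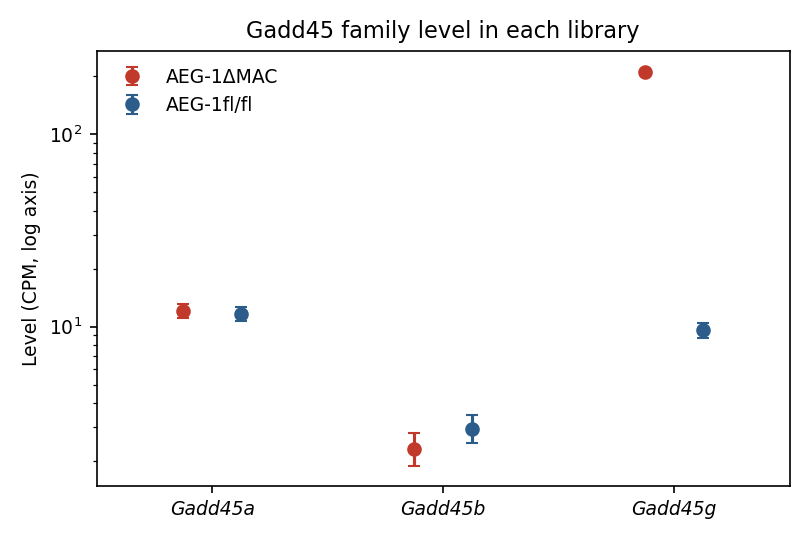
Level of each Gadd45 gene in CPM (log axis) in the AEG-1ΔMAC (red) and AEG-1fl/fl (blue) library, with exact Poisson 95% intervals for counting error. Gadd45g stood at 209.5 against 9.58 CPM, while the intervals of Gadd45a and of Gadd45b overlapped between the libraries.

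Among the 2181 genes that averaged 50 CPM or more, the ratio of Gadd45g ranked 1, followed by Alas1, the first enzyme of heme synthesis, at 3.87. Among the 6933 genes of at least 10 CPM only Cish lay above it at 4.56, and among the 11178 of at least 1 CPM Orm3 at 4.84 as well, which was 0.358 CPM in AEG-1fl/fl. These neighbours are named for their place in the order, after their values were seen. Of the 6933 genes, 1.27% were 2-fold or more higher, 0.519% were lower by as much and 1.79% were either (88 higher and 36 lower, or 67 and 48 with TMM factors). Of the members, Gadd45g was 2-fold higher, Gadd45a lay within 2-fold, and Gadd45b was too low for this count. With genes down to 1 CPM included, 3.28% were 2-fold apart, and 1 of the 3 members was. The selection used this contrast, so nothing is read from these counts.

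The difference between 2 members' ratios does not depend on how the libraries are scaled. Nor does it depend on how well a gene's probes capture, where that is the same in both sections, which was not tested. The ratio of Gadd45g exceeded that of Gadd45a by 4.40 (4.19 to 4.62) and that of Gadd45b by 4.80 (4.42 to 5.18). Gadd45a and Gadd45b differed by 0.40, with an interval that reached 0 (-0.00 to 0.79). The summed family was at 223.9 CPM in AEG-1ΔMAC against 24.1 CPM in AEG-1fl/fl, which is 3.21 (3.13 to 3.30) on the log2 scale. Its make-up in UMIs therefore differed: Gadd45g held 93.6% of family UMIs in AEG-1ΔMAC against 39.7% in AEG-1fl/fl, and Gadd45a held 5.37% and 48.1%. Gadd45b held 1.03% and 12.2%. These shares count UMIs, and probe yield differs between genes, so they are not shares of transcripts.

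The genes next to Gadd45g on chromosome 13 did not share its ratio. The nearest measured gene, Sema4d, 52.9 kb away, was at 2.07 and 1.51 CPM with a log2 ratio of 0.45. Secisbp2 was at 0.17, Syk at -0.26 and Auh at 0.30. Gadd45gip1, a mitochondrial ribosome and GADD45-binding protein whose symbol resembles that of the member, was at 93.5 and 84.8 CPM with a ratio of 0.14, close to the median of all genes.

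The Gadd45g signal was spread over nearly the whole AEG-1ΔMAC section. With every spot thinned to 5000 UMIs, which left out 12 and 8 shallower spots, a Gadd45g UMI was found in 63.5% of AEG-1ΔMAC spots (61.4 to 65.6), against 4.90% (4.09 to 5.81) in AEG-1fl/fl. Without thinning the shares were 97.4% and 16.9%. Thinned Gadd45a shares were 5.73% (4.78 to 6.81) and 6.28% (5.37 to 7.30), and unthinned 22.4% and 20.4%. Thinned Gadd45b shares were 1.08% (0.686 to 1.62) and 1.38% (0.965 to 1.92), and unthinned 4.63% and 5.67%. As background, of 10 genes that liver should lack, the highest at equal depth was Gfap, an astrocyte gene, at 0.282% and 0.197%. The shares of Gadd45a and Gadd45g in both libraries lay far above that level, and those of Gadd45b a few times above it.

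In AEG-1ΔMAC a spot held a median of 4 Gadd45g UMIs, at most 16, and 56 of 2140 spots held none. In AEG-1fl/fl 2111 of 2540 spots held none and no spot held more than 4. The level of single AEG-1ΔMAC spots had a median of 199.1 CPM, with 79.0 at the 10th and 352.7 at the 90th percentile. At 5000 UMIs the variance over the mean was 1.08, against 0.941 to 1.06 for Poisson counts of the same mean and a median of 1.01 (95th percentile 1.14) for 511 genes of like mean. In 5 equal groups of spots by depth, AEG-1ΔMAC Gadd45g was between 197.6 and 221.4 CPM, and AEG-1fl/fl Gadd45g between 8.60 and 11.2 CPM. The ranges of the libraries did not approach each other at any depth.

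**Figure D2:**
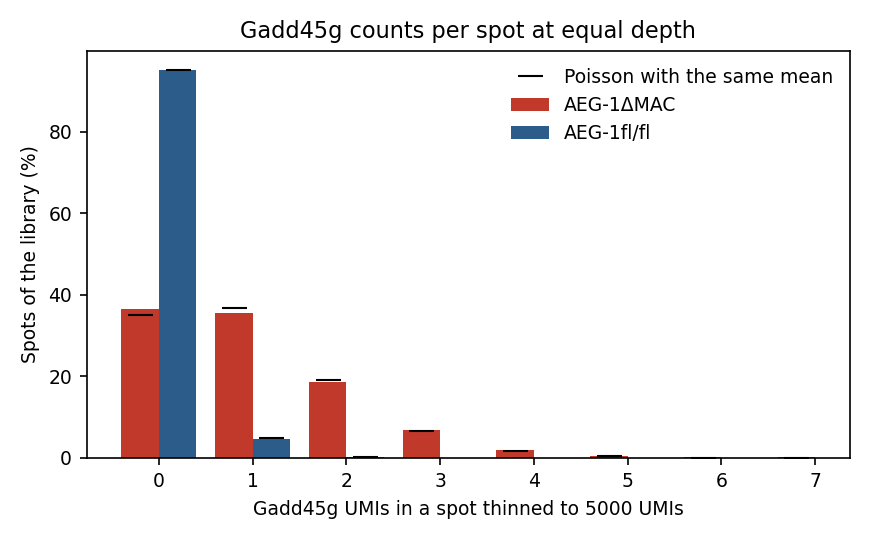
Percent of spots (y axis) by number of Gadd45g UMIs (x axis) after thinning each spot to 5000 UMIs, for AEG-1ΔMAC (red) and AEG-1fl/fl (blue), with black dashes for a Poisson distribution of the same mean. The AEG-1ΔMAC bars lie close to the dashes, and 63.5% of its spots hold at least 1 UMI against 4.90%.

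The libraries shared 1782 spot barcodes, because spot barcodes repeat between capture areas. AEG-1fl/fl Gadd45g was at 9.87 CPM in its spots with a shared barcode and at 8.84 CPM in the others, a log2 difference of 0.16 (-0.14 to 0.46). It was at 9.85, 9.68 and 10.2 CPM at barcodes where the AEG-1ΔMAC spot held 0 to 3, 4 to 5 and at least 6 Gadd45g UMIs. The low AEG-1fl/fl level did not follow the AEG-1ΔMAC count at the same barcode.

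The members differed in how they followed the lobule. In liver, blood flows from the portal tract (periportal, zone 1) to the central vein (pericentral, zone 3), and hepatocyte genes are arranged along this path. Spots were ranked in each library by the zone 3 genes Cyp2e1, Cyp1a2 and Oat minus the zone 1 genes Arg1, Hsd17b13, Cyp2f2, Gls2, Hal and Pck1, and divided into 3 equal parts. Amplitudes are the log2 of the zone 3 part over the zone 1 part. The ranking separated the 5 measured zone 3 landmark genes that did not enter it, with median amplitudes of 2.40 and 2.495. The 8 zone 1 landmarks had medians of -1.49 and -1.11, but not all were separated. Ass1 intervals spanned 0 for both libraries, at -0.30 (-0.68 to 0.08) and -0.07 (-0.44 to 0.29), AEG-1ΔMAC first. Apoa4 was flat in AEG-1fl/fl at 0.006 (-0.04 to 0.05), though its AEG-1ΔMAC amplitude was -1.36. The remaining zone 1 landmarks had intervals below 0 for both libraries. The check at the zone 1 end was thus partial. Beside this, the zone 3 markers used for ranking were higher in AEG-1ΔMAC by 1.29, so equal parts need not be the same positions in the 2 sections.

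Gadd45a was higher towards zone 3 in AEG-1ΔMAC, with no such slope in AEG-1fl/fl. In AEG-1ΔMAC it was at 8.68 CPM in the zone 1 part, 12.05 in the middle part and 15.3 in the zone 3 part, an amplitude of 0.82 (0.50 to 1.14). In AEG-1fl/fl it was at 11.3, 12.2 and 11.3 CPM, an amplitude of 0.00 (-0.30 to 0.30). The amplitudes differed by 0.82 (0.39 to 1.24), beyond counting error. Among 2519 genes within 1.5-fold of its level, the AEG-1ΔMAC amplitude was at percentile 98.9, above the 95th percentile of 0.45, and the AEG-1fl/fl amplitude at percentile 40.1. In 10 equal groups of spots the AEG-1ΔMAC level went from 5.91 CPM at the zone 1 end to 17.4 CPM at the zone 3 end. The near-zero ratio of Gadd45a over the whole section was thus a sum of unlike parts, at -0.38 (-0.71 to -0.05) in the zone 1 part, -0.02 in the middle and 0.44 (0.15 to 0.72) in the zone 3 part, where the medians of all genes were 0.13, 0.16 and 0.15. With landmark genes as the index the outer parts were at -0.28 (-0.60 to 0.04) and 0.45 (0.16 to 0.74).

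Gadd45g was nearly even along the lobule in AEG-1ΔMAC, at 219.7, 211.8 and 197.0 CPM from zone 1 to zone 3. Its amplitude of -0.16 (-0.23 to -0.09) was small, with its interval below 0, against a median of 0.11 and a 5th percentile of -0.30 for 833 genes of like level. In AEG-1fl/fl it was at 8.21, 10.2 and 10.3 CPM, an amplitude of 0.32 (-0.01 to 0.66). The ratio between the libraries was 4.74 (4.49 to 4.9995) in the zone 1 part, 4.37 (4.16 to 4.60) in the middle and 4.26 (4.04 to 4.49) in the zone 3 part. The difference between the libraries was present in every part of the lobule. Gadd45b was at 2.65, 2.21 and 2.07 CPM in AEG-1ΔMAC, against 2.29, 3.33 and 3.18 CPM in AEG-1fl/fl, with amplitudes of -0.36 (-1.08 to 0.35) and 0.47 (-0.16 to 1.11). With 31 to 58 UMIs in a part, no slope of Gadd45b was detectable at this depth.

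**Figure D3:**
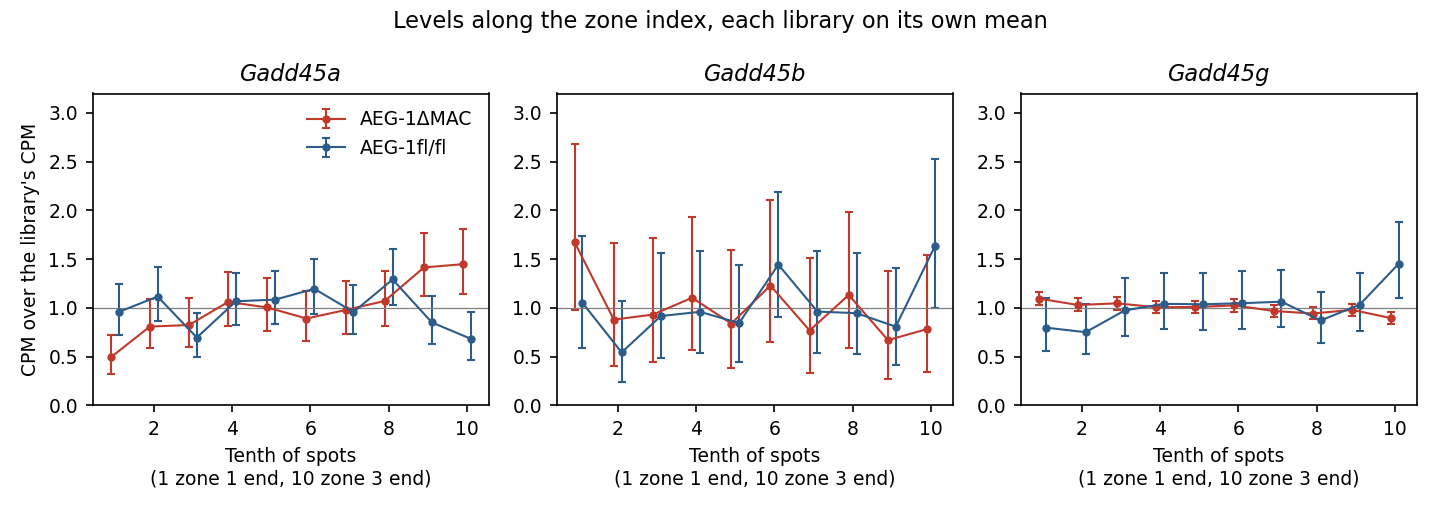
Level of each member in 10 equal groups of spots along the zone index (1 is the zone 1 end, 10 the zone 3 end), divided by its level in the whole library (y axis, no unit), for AEG-1ΔMAC (red) and AEG-1fl/fl (blue) with exact Poisson 95% intervals. Gadd45a climbs in AEG-1ΔMAC from 5.91 to 17.4 CPM, AEG-1ΔMAC Gadd45g is nearly level, and the intervals of Gadd45b are wide.

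The genes most like Gadd45g along the lobule were sought over 20 equal bins of the AEG-1ΔMAC spots, among 2168 genes of at least 50 CPM, with about 476.2 Gadd45g UMIs in a bin. The highest Pearson correlations of log2 CPM were those of F11r (0.90), H2-Q10 (0.86), Slc25a47 (0.85), Gnmt (0.85) and C3 (0.84). The 95th percentile over the 2168 genes was 0.71, so high values were common along this ranking. F11r encodes a tight junction protein, Gnmt a methyltransferase of methionine metabolism and C3 the central complement protein. Over the bins of AEG-1fl/fl, with 24.1 Gadd45g UMIs in a bin, the correlations were -0.44, -0.64, -0.68, -0.69 and -0.59. These describe a shallow slope, as the AEG-1ΔMAC bins ranged only from 186.6 to 244.0 CPM, and bins of a section share the ranking and its depth. None of the 5 shared the ratio between libraries, which ran from -0.40 to 0.19. Gadd45a and Gadd45b had under 1000 UMIs in each library and were not ranked.

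Gadd45b was the member that followed markers of bile ducts and vessel walls in both libraries. It did not detectably follow those of Kupffer cells, stellate cells or neutrophils in either library. Spots in the top 5% of a library for a marker list (107 and 127 spots) were compared with its other spots for 8 lists, 48 comparisons in all, and the 8 intervals that did not reach 0 were all of Gadd45b. In spots rich in MHC class II RNA (H2-Aa, H2-Ab1, H2-Eb1 and Cd74, of antigen-presenting cells) Gadd45b was at 11.3 CPM against 1.85 elsewhere in AEG-1ΔMAC, a log2 difference of 2.61 (1.90 to 3.28). In AEG-1fl/fl it was at 7.13 against 2.73 CPM, a difference of 1.38 (0.56 to 2.12). In spots rich in cholangiocyte markers (Spp1, Epcam, Krt7 and Krt19, of bile ducts) it was at 9.92 and 7.64 CPM, with differences of 2.37 (1.62 to 3.06) and 1.52 (0.78 to 2.19). In spots rich in vessel wall markers (Acta2, Myh11, Tagln and Mgp) it was at 8.62 and 7.18 CPM, with differences of 2.13 (1.35 to 2.85) and 1.40 (0.57 to 2.13). Each of these values rests on 17 to 25 UMIs in the set of spots. With sets of the top 10% instead, the AEG-1fl/fl difference for MHC class II spots was 0.66 with an interval that spanned 0 (-0.08 to 1.34), while those for cholangiocyte and vessel wall spots were 0.97 (0.32 to 1.58) and 0.80 (0.09 to 1.45). Gadd45b was thus higher in cholangiocyte-rich and vessel-rich spots of both libraries at either size of set, and in MHC class II-rich spots at both sizes in AEG-1ΔMAC only.

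Bile ducts, vessels and immune cells lie side by side in portal tracts, and these 3 sets overlapped. Cholangiocyte-rich and vessel-rich spots shared 44.9% of each set in AEG-1ΔMAC, against 35.4% in AEG-1fl/fl. As 1 set they covered 10.1% and 10.7% of spots and held 33.3% and 20.3% of Gadd45b UMIs, but 9.89% and 10.8% of Gadd45a UMIs and 9.38% and 12.7% of Gadd45g UMIs. Outside them Gadd45b was at 1.71 CPM in AEG-1ΔMAC against 2.62 CPM in AEG-1fl/fl, for a ratio of -0.62 (-1.06 to -0.18). These sets were picked because Gadd45b was high in them, and they held a larger share of its UMIs in AEG-1ΔMAC. Leaving them out lowers the ratio by construction, so no direction is read from it. Inside them the levels were 7.74 and 5.65 CPM. In AEG-1ΔMAC 1 spot held 4 Gadd45b UMIs and belonged to 5 of the 8 sets. Without it the differences for MHC class II, cholangiocyte and vessel wall spots were 2.37 (1.60 to 3.08), 2.09 (1.26 to 2.84) and 1.82 (0.95 to 2.60). The ratio of Gadd45b between the libraries over all other spots was -0.40 (-0.78 to -0.03). The spot was picked for its Gadd45b count and left out of AEG-1ΔMAC only. The ratio could therefore only fall, and no direction is read from it. The difference for lymphocyte-rich spots went from 1.85 (0.95 to 2.64) to 1.41 (0.36 to 2.32), and that for spots rich in sinusoidal endothelium from 1.48 (0.48 to 2.35) to 0.91 (-0.35 to 1.94). In AEG-1fl/fl both of the latter lay near 0, at -0.25 (-1.90 to 1.004) and -0.21 (-1.85 to 1.05).

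No interval of Gadd45g left 0 for any of the 8 lists. In AEG-1ΔMAC it was between 194.4 and 209.1 CPM in every set of spots, with differences from -0.11 to -0.00. Its ratio between the libraries was between 3.85 and 4.71 in every set. Hepatocyte markers held 13.6% to 15.0% of UMIs in the AEG-1ΔMAC sets, so hepatocyte RNA was present in all of them. Gadd45a differences were between -0.21 and 0.44 in AEG-1ΔMAC, against -0.38 to 0.53 in AEG-1fl/fl, all with intervals that spanned 0. With the top 10% of spots, AEG-1ΔMAC Gadd45a lay above 0 in stellate-rich spots at 0.42 (0.02 to 0.80) and in spots rich in sinusoidal endothelium at 0.41 (0.01 to 0.79). The neutrophil set of AEG-1ΔMAC is marker-rich in name only, as 18 of its 107 spots held no UMI of the list. Beside these values, MHC class II RNA summed to 787 and 388 CPM in the libraries and neutrophil RNA to 2.68 and 15.8 CPM, while cholangiocyte RNA was at 73.5 and 62.3 and vessel wall RNA at 34.3 and 31.3 CPM. The part of these in the Gadd45b values between libraries was not tested.

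**Figure D4:**
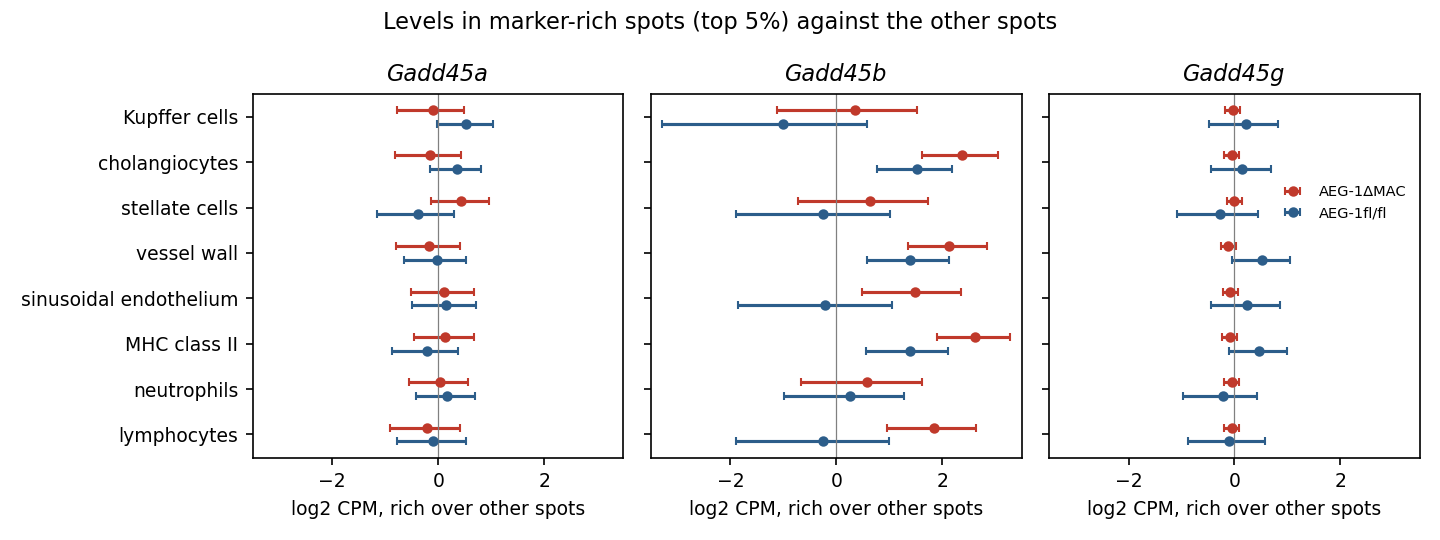
Log2 difference in CPM between the 5% of spots richest in a marker list and the other spots of the same library (x axis) for 8 lists (y axis), for AEG-1ΔMAC (red) and AEG-1fl/fl (blue), with exact 95% intervals. Gadd45b lies above 0 for cholangiocyte, vessel wall and MHC class II spots in both libraries at this size of set (for MHC class II in AEG-1fl/fl not in the top 10%), and Gadd45g of AEG-1ΔMAC lies near 0 throughout.

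The pathway around the family was read from 8 lists of 100 listed genes. Of the 98 measured, 52 had a mean of at least 10 CPM, and of these 7 lay 2-fold or more higher and 2 as far lower, 17.3% against 1.79% of all genes. The lists were drawn up with earlier results of these data known, and some genes stand in more than 1 list, so this share is no evidence about the pathway.

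Of the proteins that GADD45 binds and the kinases it activates, 8 of 14 passed the level filter, and none of these was 2-fold apart. Their median ratio was 0.15, equal to that of all genes. Mapk14, which encodes p38α, was at 100.9 and 80.5 CPM (0.33), Map2k3, a kinase that activates it, was at 0.33 and Map2k4, which activates JNK and p38, at 0.19. Cdkn1a, which encodes p21 and is both a partner and a p53 target, was the furthest at 28.9 and 47.7 CPM, a ratio of -0.72 (-0.82 to -0.62). The 6 kinase genes that passed lay between 0.08 and 0.33. Of the 5 measured genes of this list under the level filter, 2 intervals lay below 0 and 2 above. Map3k4 was at 0.50 (0.27 to 0.73) and Map2k6 at 0.38 (0.09 to 0.66). Mapk11 was at -0.44 (-0.81 to -0.07) and Cdk1 at -1.58 (-1.85 to -1.31). They are named after their values were seen.

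The 10 p53 targets with enough counts had a median of 0.02, and 1 was 2-fold higher and 1 lower. Plk3, a stress kinase, was at 62.9 and 11.1 CPM (2.502), and its paralog Plk2 at 13.0 and 29.9 CPM (-1.20). Mdm2, the ligase that degrades p53, was at 0.32. Gadd45a, the p53 target of the family, lay near the median of this list. Of the 9 p53 targets under the level filter 6 were lower, with ratios from -1.47 to 0.58. Of their intervals 2 lay below 0 and 1 above. Of the GADD and integrated stress genes 5 of 14 passed, with a median of 0.38 and 1 at least 2-fold higher. That gene was Cebpb, a transcription factor of the acute phase and of gluconeogenesis, at 286.7 and 123.0 CPM (1.22). Ppp1r15a, also called Gadd34, which restarts translation after stress, was at 15.7 and 9.08 CPM (0.79), Atf4 at 0.38 and Cebpg at 0.27. The 9 genes of this list under the level filter went both ways, with 3 intervals below 0 and 3 above. Named after their values were seen, Asns, which makes asparagine, was at 1.23 and 14.7 CPM (-3.58), the hormone gene Fgf21 at 3.56 and 10.1 CPM (-1.50) and Chac1, which degrades glutathione, at 6.40 and 1.23 CPM (2.38).

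Of known regulators of the Gadd45 genes 14 of 16 passed, with a median of 0.12, 2 higher and 1 lower. Myc, which represses Gadd45a in other settings, was at 37.8 and 4.49 CPM (3.07), and Jun, a subunit of AP-1, at 34.1 and 16.02 CPM (1.09). Egr1, an immediate-early factor, was at 41.7 and 129.0 CPM (-1.63). Nr1i3, the xenobiotic receptor CAR, a known partner of Gadd45b, was at 175.6 and 108.7 CPM (0.69). Of NF-κB targets, the set that Gadd45b belongs to, 5 of 11 passed and none was 2-fold apart with a median of -0.03. Tnfaip2 was furthest at 20.4 and 40.6 CPM (-0.995), then Nfkbia, the NF-κB inhibitor, at 0.36, Bcl3 at 0.31 and Icam1 at -0.12.

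The STAT targets, genes that answer to cytokine and growth hormone receptors in either direction, held the gene closest to Gadd45g in size. Of 8 that passed, 3 were at least 2-fold higher and none lower, with a median of 0.42. Of all genes, 1.27% were higher and 0.519% lower by as much. This list too was drawn up with earlier results of these data known, so nothing is read from the count or from the place of Cish in it. Cish, a feedback inhibitor of STAT5 signalling, was at 92.5 and 3.91 CPM (4.56, 4.36 to 4.78), Pim3 at 91.5 and 28.3 CPM (1.69) and Socs3, a feedback inhibitor of STAT3 signalling, at 24.6 and 8.51 CPM (1.53). Bcl6, a repressor that growth hormone lowers through STAT5, was at 72.0 and 131.2 CPM (-0.86). Of the 8 genes, 6 lay above 0 and 5 lay within 2-fold, among them Igf1 at 0.09 and Fgl1 at -0.60. Under the level filter lay Socs2 (1.06) and Socs1 (0.73). Igf1, Fgl1, Socs2 and Socs1 are named after their values were seen. The DNA demethylation genes that passed, Tet2 (0.30), Tet3 (0.24) and Apobec1 (0.09), lay within 2-fold.

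None of the G2/M cell cycle genes reached 10 CPM. All 8 measured members were lower in AEG-1ΔMAC with intervals below 0, with ratios from -2.91 to -0.98 at means from 0.281 to 6.66 CPM. Of all 4469 genes in that range of means, 14.9% had an interval below 0. Mki67, a marker of proliferating cells, was at 2.13 and 10.2 CPM (-2.26) and Cdk1, the kinase that GADD45 proteins inhibit, at 3.34 and 9.98 CPM (-1.58). These 2 are outside the rule for named genes and were chosen after their values were seen. The plot of the pathway lists shows that most listed genes lay near the median of all genes while a few lay far to either side.

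**Figure D5:**
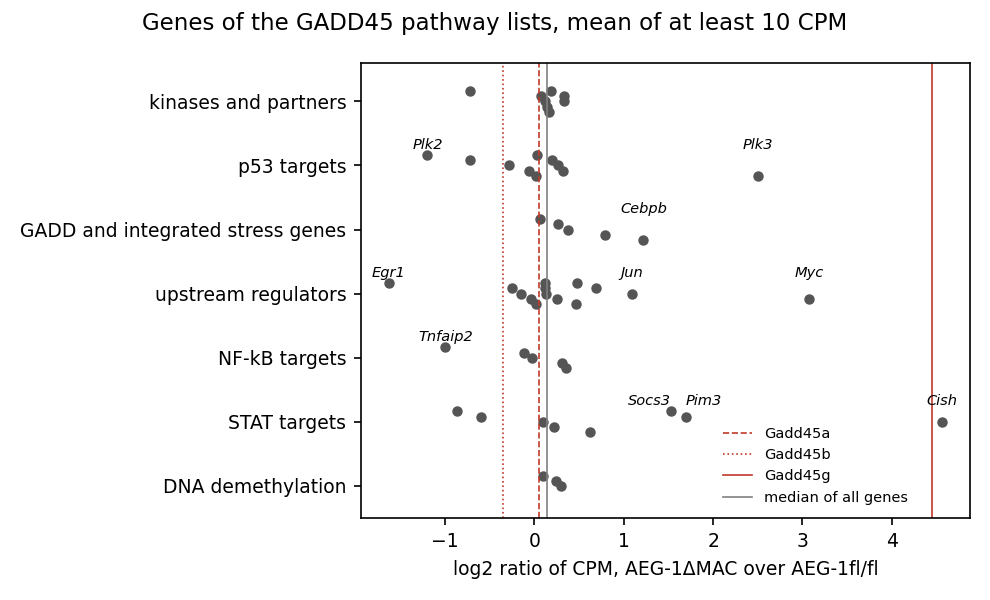
Log2 ratio of the AEG-1ΔMAC to the AEG-1fl/fl level (x axis) for each gene that averaged 10 CPM or more in 7 pathway lists (y axis), 1 point per gene, with names for those nearly 2-fold or more apart. Vertical lines mark the 3 members and the median of all genes (0.15), and only Cish reaches the ratio of Gadd45g (4.45).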

How the data were processed

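Liver sections were profiled by the authors with 10x Visium for formalin-fixed tissue, in which probe pairs are counted per spot. The deposited matrices give, for every gene and spot, an unnormalised UMI count, made with Space Ranger 2.0.1 on mm10; Seurat 4.3.0 is named in the processing notes. Groups came from the genotype labels. Spots were kept with at most 50000 UMIs and 100 to 7000 genes, as in the study, which removed 9 and 3. UMIs summed over spots gave CPM with exact Poisson intervals, and ratios had exact conditional binomial (Clopper-Pearson) intervals. Differences of ratios and of amplitudes used a normal approximation to log counts. No hypothesis test was run. Scripts ran in Python 3.11.15 and the ratio calculation was tested on simulated data. TMM factors (edgeR 4.0.16, used for scaling only), median-of-ratios factors, other filters, depths and zone indices were alternatives.

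The members and lists were chosen with earlier results of these data known. The genes named were the 3 members, Mtdh, at most 4 genes per pathway list with the largest absolute log2 ratio among those averaging 10 CPM or more, and the 5 genes most correlated with a member of at least 1000 UMIs over 20 zone bins. Fixed lists held kinases and partners, p53 targets, GADD and integrated stress genes, upstream regulators, NF-κB targets, STAT targets, DNA demethylation and G2/M genes. Gene coordinates came from GENCODE M21, another release than the authors counted on, and promoters from RefSeq. Of the listed genes, Glul, Ccnb1 and Cdc20 were not analysed here. Probe sequences were not used here, so levels were not compared between genes, and overlap of the Gadd45a probes with E230016M11Rik is not known. The comparisons with shared barcodes, without the spot richest in Gadd45b and outside portal marker spots were added after seeing the data.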

Additional observations from a re-analysis of the deposited data

Results flagged for a closer look

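Zone amplitudes of opposite sign in the libraries drew attention for Gadd45b and Gadd45g, and the differences were not tested, since each genotype had 1 library. Gadd45b was at -0.36 in AEG-1ΔMAC against 0.47 in AEG-1fl/fl, with both intervals spanning 0 and a difference of -0.83 (-1.74 to 0.08). Gadd45g was at -0.16 in AEG-1ΔMAC against 0.32 in AEG-1fl/fl, a difference of -0.48 (-0.82 to -0.15).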

How the results depend on the processing

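No paired analysis was possible because there was 1 library per genotype. Of 229 alternative values over 97 results, 196 stayed close to the reported value (within its counting interval where it had one) and 33 moved further. The sign differed in 13, all of values whose own interval spanned 0 or, for 1 list median, had no interval: 3 scalings of the Gadd45a ratio (down to -0.09), 3 of the AEG-1fl/fl amplitude of Gadd45a, 6 in marker-rich spots, such as Gadd45b in the AEG-1ΔMAC neutrophil set (0.59 to -0.13), and the median of the upstream regulators. No value whose interval excluded 0 changed sign. With the 50 top genes left out of the total, the Gadd45g ratio was 4.31, and over all scalings it was between 4.31 and 4.48. Shares of spots follow depth: thinned to 10000 UMIs they were 87.0% and 9.86% for Gadd45g, 10.8% and 10.6% for Gadd45a and 1.99% and 2.79% for Gadd45b (AEG-1ΔMAC first), and unthinned 97.4% and 16.9%, 22.4% and 20.4%, and 4.63% and 5.67%. With the outer 10% of spots at each end of the zone index, the amplitude of Gadd45a was 1.56 in AEG-1ΔMAC against -0.49 in AEG-1fl/fl, that of Gadd45b was -1.10 in AEG-1ΔMAC, and those of Gadd45g were -0.29 and 0.87. In the top 10% of MHC class II spots the Gadd45b difference was 1.89 in AEG-1ΔMAC and 0.66 (-0.08 to 1.34) for AEG-1fl/fl, where the interval no longer excluded 0. In that setting 2 Gadd45a intervals of AEG-1ΔMAC lay above 0, for stellate and sinusoidal endothelium spots. The variance over mean at 10000 UMIs was 1.03 and 1.02 for Gadd45a and 1.07 and 0.972 for Gadd45b. Tnfaip2 made 1 NF-κB target 2-fold apart under TMM factors, median-of-ratios factors, the total without the top 50 genes, and spots matched on depth. All genes counted as 2-fold higher and lower were 88 and 36, against 67 and 48 with TMM factors, 194 and 173 at a minimum of 1 CPM, 35 and 12 at 50 CPM, and 298 and 124 at 1.5-fold. Where values moved, the cause was not tested beyond what the alternative changes by construction.

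The number of libraries limits every statement about genotype. Gadd45b, with 105 and 148 UMIs, is limited by depth as well, and AEG-1fl/fl Gadd45g with 482 UMIs limits its profile along the lobule.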
